A study of Mus musculus with 12 samples.

Results

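Blimp-1 cKO cultures of mammary epithelial cells (MECs) on day 3 (D3) were set against wild type MECs that had been in culture for a day longer (D4). Each gene was read as exceeding, reaching or falling short of the level in the older wild type cultures. The comparison takes 6 of the 12 Illumina arrays of the series, 3 of D3 cKO and 3 of D4 wild type. Genes were tested where 3 or more of these 6 arrays detected a probe (detection p below 0.05). This left 18666 of 45281 probes and 10163 named genes. The donors of cKO cultures were Prdm1 BEH/CA;ROSA26:CreERT2 females and those of wild type cultures C57BL/6 females, all of them pregnant. Cells of both were grown as 3D cultures with 4-hydroxytamoxifen on D0, which switches on Cre recombinase where it is carried, and for wild type no Cre is described. By the study's methods, cKO names cultures in which this treatment deleted Blimp-1. The absence of Blimp-1, Cre activity, the mouse line and the day of culture therefore cannot be told apart in this comparison. The same holds for the BeadChip, which is not given here for D3. The study's methods describe RNA of several independent cultures of each genotype and 3 samples of each on arrays, without saying which cultures or animals gave which sample, so p-values cover only the spread between these samples.

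Prdm1 encodes Blimp-1, which binds DNA and represses transcription, for example during the maturation of plasma cells. Interferons act through receptors that activate STAT proteins, and these enter the nucleus with interferon regulatory factors (IRFs) and switch on antiviral genes, the genes of MHC class I antigen presentation and chemokines. Mammary epithelium has an inner luminal layer, which makes milk under prolactin and glucocorticoids, and an outer layer of basal and myoepithelial cells. Dissociated MECs can divide, form acini and make milk proteins in culture, so that cultures of different days can differ in all of these. The medium in the study's methods held insulin, hydrocortisone, epidermal growth factor and serum, and no prolactin is listed.

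Values below are background-corrected, quantile-normalized log2 signals, and each difference is D3 cKO minus D4 wild type with its standard error (SE) from a limma fit of all 12 arrays. A gene was called higher or lower where its fold was 1.5 or more and its adjusted p did not exceed 0.05. It was called at the level of D4 wild type where limma's tests against 1.5-fold in either direction were both passed after adjustment. Genes that met none of these criteria are called undecided. Some of them had an adjusted p that did not exceed 0.05 at a fold below 1.5. For the other undecided genes nothing follows in either direction. Exact permutation of the 6 arrays could give a single gene no p below 0.1, and the precision is limited by how few arrays there are.

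Of the 10163 genes, 600 were higher (5.9%) and 722 lower (7.1%) in D3 cKO than in D4 wild type, 5231 (51.5%) were at the level and 3610 (35.5%) were undecided. The median difference over all genes was 0.01, and the median of its absolute size was 0.23. The plot of mean levels shows that most genes lay along the line of equal level over the whole range of signal. Arrays of the same group correlated at 0.984 to 0.990 across probes, and arrays of different groups at 0.961 to 0.973. The number of detected probes was 18217 to 18698 on D3 cKO arrays and 18087 to 18905 on D4 wild type arrays.

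**Figure D1:**
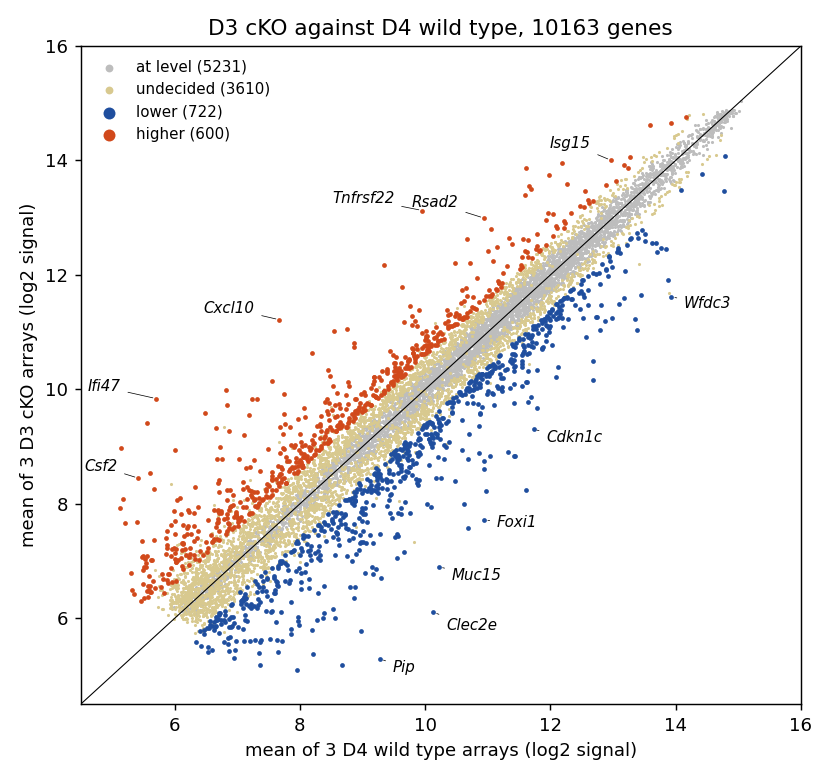
Mean log2 signal of the 3 D3 cKO arrays (vertical axis) against that of the 3 D4 wild type arrays (horizontal axis), a point for each of 10163 genes, coloured by class with the number of genes, with the line of equal level. Ifi47, Cxcl10 and Tnfrsf22 lay far above the line, and Pip, Clec2e and Muc15 far below it.

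Prdm1 itself gave no check of the genotype. Neither of its 2 probes was detected on a D4 wild type array, and 1 of them was detected on 1 D3 cKO array, so Prdm1 did not enter the test. Whether these probes lie inside the deleted stretch of the gene is not known here. Defining epithelial genes were well expressed in both groups. Krt8, a luminal keratin, had signals of 14.83, 14.81 and 14.77 in D3 cKO and 14.83, 14.63 and 14.67 in D4 wild type, and it was at the level, as were Krt18, the basal keratin Krt14 and the E-cadherin gene Cdh1. Epcam was undecided, with a difference of -0.13, and Krt5, another basal keratin, was higher by 1.95. Of 12 tested housekeeping genes, 11 were at the level, and the transferrin receptor gene Tfrc was higher by 0.72.

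Genes that interferons induce to fight viruses mostly reached or exceeded the level of older wild type cultures where a call was made, and none was called lower. Of 54 tested interferon-stimulated effectors, 20 were higher, 14 were at the level and 20 were undecided, with a median difference of 0.39 against 0.01 over all genes. The share higher was above the 5.9% over all genes, and the share at the level was below the 51.5% over all genes. Rsad2, which encodes the antiviral protein viperin, had signals of 12.78, 13.49 and 12.71 in D3 cKO and 10.62, 11.10 and 11.11 in D4 wild type. Every D3 cKO array lay above every D4 wild type array, and the difference was 2.05 (SE 0.20, adjusted p = 8.7e-05). Ifit3, which binds viral RNA together with its relatives, had signals of 12.20, 13.48 and 12.21 against 10.39, 10.95 and 10.68, and Ifit2 was higher by 1.76. The Ifit3 groups did not overlap, with a difference of 1.96 (SE 0.29, adjusted p = 0.00105). D3 wild type cultures had lower signals of both genes, 9.73, 9.59 and 9.72 for Rsad2 and 9.06, 8.99 and 9.06 for Ifit3.

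Isg15, a ubiquitin-like modifier, and Usp18, the protease that removes it, also stood above the older wild type cultures. Usp18 had signals of 13.36, 14.28 and 13.12 in D3 cKO, 12.20, 12.26 and 12.32 in D4 wild type and 10.19, 10.23 and 10.29 in D3 wild type. The D3 cKO arrays were all the highest, by 1.33 over D4 wild type (SE 0.23, adjusted p = 0.00243). Isg15 had signals of 13.90, 14.52 and 13.59 against 13.16, 12.85 and 12.90, again with no overlap, and differed by 1.03 (SE 0.22, adjusted p = 0.00832). Pml and Sp100, which organise nuclear bodies, were higher by 1.74 and 1.82. In Pml, D4 wild type (10.53, 10.50 and 10.40) lay close to D3 wild type (10.01, 9.88 and 10.14) and D3 cKO well above both (12.01, 12.67 and 11.96).

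Other effectors stood at the level that wild type cultures had at D4. Bst2, which tethers budding virions to the cell, had signals of 12.25, 12.33 and 11.89 in D3 cKO, 12.53, 12.05 and 11.96 in D4 wild type and 10.66, 10.80 and 10.75 in D3 wild type. The first 2 groups overlapped and differed by -0.02 (SE 0.20), and both lay above D3 wild type. Trim25, a ubiquitin ligase of the RIG-I pathway, was at the level with a difference of 0.13, and the membrane proteins Ifitm2 and Ifitm3 with differences of -0.17 and -0.09. The genes of 2'-5'-oligoadenylate synthetases, which sense double-stranded RNA, were mostly undecided. Oas2 had signals of 9.59, 11.10 and 9.42 in D3 cKO, 9.47, 9.25 and 9.08 in D4 wild type and 6.02, 6.37 and 6.07 in D3 wild type. D3 cKO replicates 1 and 2 were above all D4 wild type arrays, replicate 2 by far the most, and replicate 3 lay among them, and the difference of 0.77 had a 95% interval of 0.01 to 1.53 (adjusted p = 0.145). Oasl1 was higher by 1.53. Oasl2 was undecided on its brightest probe and higher by 0.83 on another, and the Oas1 genes are near-identical copies whose probes may not tell them apart.

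The interferon-stimulated effectors were not equally high on the 3 D3 cKO arrays. Their median over genes, relative to the mean of D4 wild type, was 0.22 on replicate 1, 1.04 on replicate 2 and 0.17 on replicate 3. Without D3 cKO replicate 2, 13 of the 54 effectors were higher in place of 20, and Rsad2, Ifit3, Usp18, Isg15 and Pml kept their calls. Dhx58, an RNA helicase of the RIG-I family, was higher by 0.70 and lost its call in that setting. The call of Dhx58 was lost in 9 of 18 alternative settings in all, and its other probes were undecided at 0.68 and 0.65.

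**Figure D2:**
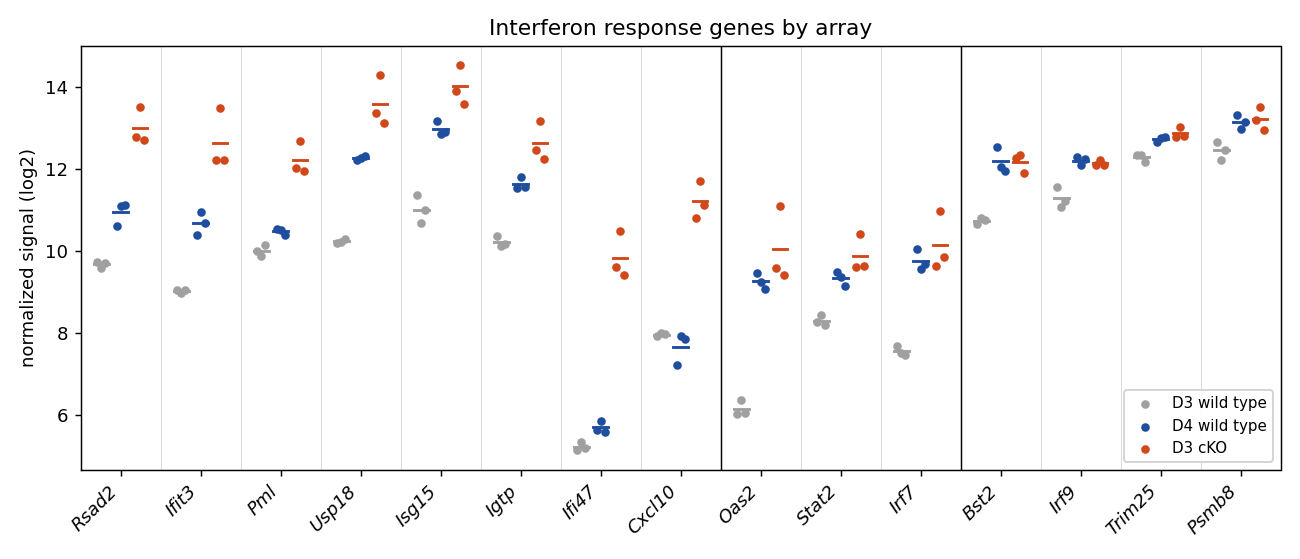
Normalized log2 signal of 15 interferon response genes (vertical axis) on each array, with 3 points and a bar at the mean for D3 wild type, D4 wild type and D3 cKO. Black lines part genes that were higher in D3 cKO than in D4 wild type (left), undecided (middle) and at the level (right), and D4 wild type had a higher mean than D3 wild type except in Cxcl10, with Ifi47 not above background in D4 wild type.

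The interferon-inducible GTPases, which attack vacuoles that hold pathogens, had 2 of 9 tested members higher and 7 undecided. Among all genes, 5.9% were higher and 35.5% undecided. Ifi47 had signals of 9.61, 10.48 and 9.43 in D3 cKO and 5.66, 5.87 and 5.61 in D4 wild type. Its probe was detected on no D4 wild type array, so its fold is given as at least 12.1-fold (adjusted p = 1.49e-06), the D3 cKO mean over the lowest signal of a detected probe. Igtp had signals of 12.45, 13.15 and 12.24 against 11.53, 11.81 and 11.57 and differed by 0.98 (SE 0.21, adjusted p = 0.00709), with no overlap. The other seven differed by -0.24 (Iigp1) to 0.82 (Gvin1). As with the effectors, replicate 2 was the highest D3 cKO array, with a median over these genes of 1.32 above D4 wild type against 0.48 and 0.12. The count of higher GTPases was 6 without D3 cKO replicate 3 and 5 with the replicate number as a block.

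Promoters of these genes are shown for both outcomes, since many of them hold the element through which IRFs and STATs act, GAAANNGAAA, which the recognition sequence of Blimp-1 resembles. It was searched on both strands in the window from 250 bases before to 50 after the start of each gene (RefSeq, GRCm38.p6), where a reverse match reads TTTCNNTTTC. Each stretch below lies before the start site on the coding strand, with matches in capitals: Isg15 (chr4:156200862-156200921, minus strand), Igtp (chr11:58199497-58199555, plus) and Rsad2 (chr12:26456538-26456597, minus), which were higher, Bst2 (chr8:71537568-71537627, minus) and B2m (chr2:122147523-122147582, plus), which were at the level, and Gbp3 (chr3:142559974-142560033, plus), which was undecided.
Isg15: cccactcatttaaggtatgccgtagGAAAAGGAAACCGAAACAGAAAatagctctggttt
Igtp: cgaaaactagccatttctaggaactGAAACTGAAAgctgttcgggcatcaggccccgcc
Rsad2: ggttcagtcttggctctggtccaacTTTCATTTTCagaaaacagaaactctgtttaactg
Bst2: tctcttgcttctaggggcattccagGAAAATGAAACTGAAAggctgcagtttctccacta
B2m: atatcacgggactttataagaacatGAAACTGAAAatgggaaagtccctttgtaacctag
Gbp3: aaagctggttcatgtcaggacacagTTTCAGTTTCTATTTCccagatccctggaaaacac

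The element stood in the window of 17 of 40 interferon-stimulated effectors with a promoter in the table (42.5%) and of 6 of 7 GTPases (85.7%), against 298 of 8235 tested genes (3.62%) and 1131 of all 32851 promoters (3.44%). Isg15 held 3 overlapping matches and Bst2 held 2. Among effectors that were higher it stood in 4 of 15 promoters, among those at the level in 7 of 12 and among the undecided in 6 of 13. It stood in 20 of 454 promoters of all higher genes (4.41%), 14 of 556 of all lower genes (2.52%) and 152 of 4288 of all genes at the level (3.54%). A match describes these letters only.

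Of 22 tested genes of MHC class I presentation, 12 were at the level, 1 was higher and 9 were undecided, a share at the level close to the 51.5% over all genes. H2-K1, which encodes a class I heavy chain, had signals of 11.34, 11.38 and 11.51 in D3 cKO, 11.42, 11.40 and 11.66 in D4 wild type and 10.85, 10.95 and 11.03 in D3 wild type. D3 cKO and D4 wild type overlapped, and both lay above D3 wild type. Psmb8, a catalytic subunit of the immunoproteasome, had signals of 13.20, 13.50 and 12.95 and 13.32, 12.97 and 13.14 in the same groups and was at the level with a difference of 0.07 (SE 0.16). B2m, the light chain of class I molecules, Psmb9 and Tap2 were also at the level, with differences of -0.14, 0.08 and 0.16. Tapbpl, a peptide editor, was higher by 0.59 and lost that call without D3 cKO replicate 2 or 3 or D4 wild type replicate 1. Tap1, a subunit of the peptide transporter, differed by 0.56 and was undecided (adjusted p = 0.128), and probes of the H2-Q genes may not tell these close copies apart.

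Of 23 tested genes of interferon signalling, 14 were at the level, 2 were higher and 7 undecided. Over all genes, 51.5% were at the level and 5.9% higher. The factor genes Irf1, Irf2, Irf3 and Irf9 were at the level, with differences of -0.05, 0.00, -0.13 and -0.07. Irf9, an IRF that binds DNA in the interferon response, had signals of 12.10, 12.22 and 12.09 in D3 cKO and 12.28, 12.09 and 12.24 in D4 wild type, above those of D3 wild type (11.55, 11.08 and 11.21). Irf7, which drives interferon production, was undecided, with signals of 9.64, 10.97 and 9.86 against 10.04, 9.56 and 9.67, among which replicate 2 of D3 cKO was again the highest. Stat2 differed by 0.55 (SE 0.19, adjusted p = 0.0662) and was undecided although its 3 D3 cKO arrays lay above those of D4 wild type. Irf5 was higher by 1.30 and Ikbke, a kinase upstream of IRF3, by 0.71, and the call of Ikbke was lost in 9 of 18 alternative settings. The probe of Irf5 was detected on only 1 D4 wild type array, so the size of its difference is uncertain. Its difference was 0.56 to 1.61 over the 18 settings. The call of Irf5 was lost without background correction and in the unpaired t-test. Ifnlr1, the receptor subunit specific for type III interferons, was lower by less than 1.5-fold and so undecided, at -0.55 (SE 0.09, adjusted p = 0.00218). Its signals were 10.94, 11.01 and 10.87 in D3 cKO and 11.59, 11.48 and 11.40 in D4 wild type, and the groups did not overlap. Of 16 tested genes that the study names, a choice that is not independent of this series, 3 were higher, 6 were at the level and 7 undecided.

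Several chemokine and cytokine genes exceeded the D4 wild type level. Of 14 chemokines, 6 were higher, 3 lower, 1 at the level and 4 undecided. The shares over all genes were 5.9% higher, 7.1% lower and 51.5% at the level. Cxcl10, which attracts T cells, had signals of 10.81, 11.71 and 11.12 in D3 cKO, 7.24, 7.93 and 7.85 in D4 wild type and 7.93, 7.997 and 7.98 in D3 wild type. Both wild type groups lay far below D3 cKO, which was higher than D4 wild type by 3.54 (SE 0.25, adjusted p = 1.44e-05). Ccl5 was higher by 2.52 (SE 0.30, adjusted p = 0.000324) and the neutrophil attractant Cxcl1 by 2.26 (SE 0.24, adjusted p = 0.000167). Cxcl17, a mucosal chemokine, went the other way. Its signals were 9.44, 8.92 and 8.47 in D3 cKO, near those of D3 wild type (8.65, 8.81 and 8.34), and 11.01, 10.38 and 10.38 in D4 wild type, a difference of -1.65 (SE 0.26, adjusted p = 0.00142).

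Among 23 genes of NF-kB signalling and inflammation, 8 were higher, none lower, 3 at the level and 12 undecided. All genes together had 5.9% higher, 7.1% lower and 51.5% at the level. Csf2, which encodes GM-CSF, had signals of 9.17, 8.16 and 8.02 in D3 cKO and 5.42, 5.19 and 5.66 in D4 wild type, where its probe was not above background, so that it was at least 4.62-fold higher (adjusted p = 0.00243). Il1a, an alarmin of epithelial cells, had signals of 9.81, 9.53 and 10.16 in D3 cKO, 6.43, 7.58 and 7.68 in D4 wild type and 9.27, 9.10 and 8.96 in D3 wild type. Csf3, which encodes G-CSF, had 9.29, 9.01 and 9.86, 7.89, 7.51 and 7.89 and 9.31, 8.94 and 9.31 in the same order. In both of these genes D4 wild type was the lowest group, and D3 cKO exceeded it by 2.61 for Il1a (SE 0.31, adjusted p = 0.000324) and 1.62 for Csf3 (SE 0.27, adjusted p = 0.00193). Nfkbia, Tnf and Il1b were undecided, with differences of -0.65, -0.02 and -0.63, and Lcn2, a secreted iron-binding protein, was at the level.

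**Figure D3:**
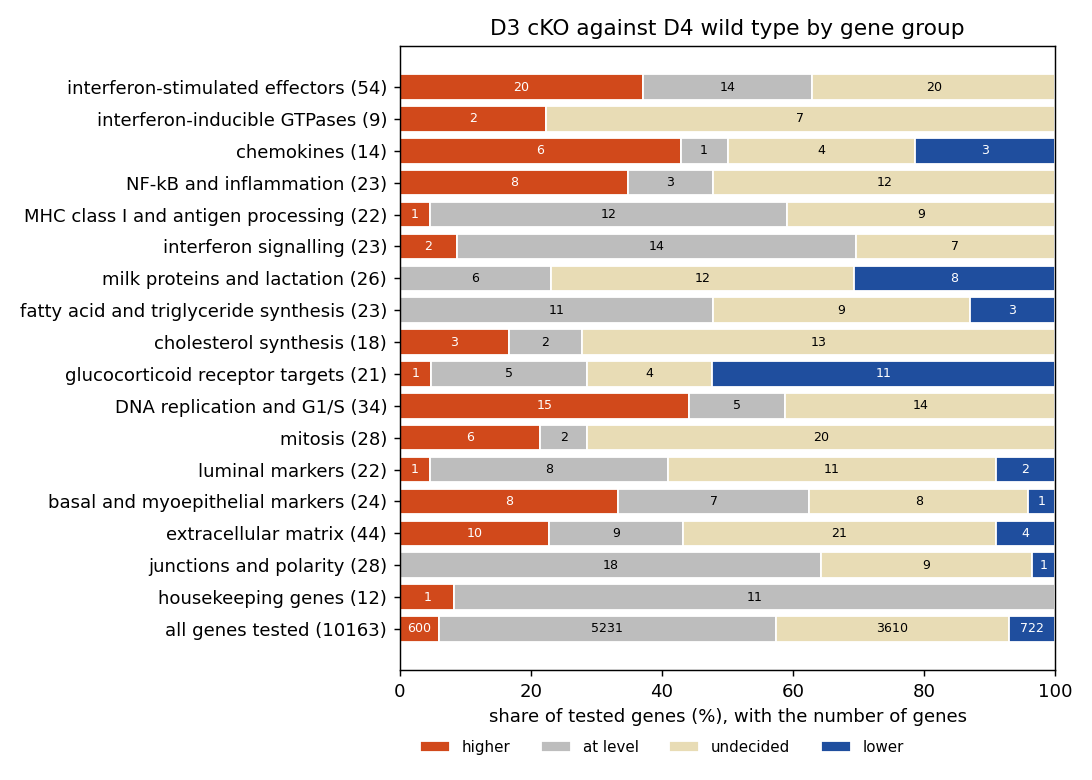
Share of the tested genes of each group (horizontal axis, percent) that were higher in D3 cKO than in D4 wild type, at the level, undecided or lower, with the number of genes in each bar and the number tested in brackets. DNA replication genes had 15 of 34 higher and glucocorticoid receptor targets 11 of 21 lower, against 600 and 722 of 10163 over all genes.

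Some genes of lactation fell short of D4 wild type. Of 26 tested milk and lactation genes, 8 were lower, none was higher, 6 were at the level and 12 undecided, with a median difference of -0.50. Among all genes, 7.1% were lower, 5.9% higher and 51.5% at the level. Pip, a prolactin-induced secreted protein, had signals of 5.32, 5.35 and 5.20 in D3 cKO, 9.56, 8.78 and 9.49 in D4 wild type and 5.20, 6.07 and 5.35 in D3 wild type. Its probe was detected on no D3 cKO array, and D4 wild type was at least 8.28-fold higher (adjusted p = 1.2e-05). Muc15, a mucin that coats milk fat globules, differed by -3.32 (SE 0.49, adjusted p = 0.00108), with signals of 7.19, 6.83 and 6.68 against 10.46, 10.13 and 10.08 and no overlap. Wfdc3, of the whey acidic protein family, had signals of 11.52, 11.80 and 11.52 in D3 cKO and 14.03, 13.82 and 13.94 in D4 wild type, and its D3 wild type signals were 11.94, 12.34 and 11.89. D3 cKO was the lowest of the 3 groups for Wfdc3, and its difference from D4 wild type was -2.32 (SE 0.23, adjusted p = 0.00011).

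Elf5 and Stat5a, which encode factors of alveolar differentiation, were among the lower genes. Elf5 had signals of 11.96, 12.24 and 12.13 in D3 cKO, 12.75, 12.66 and 13.26 in D4 wild type and 12.07, 12.15 and 12.06 in D3 wild type. D3 cKO and D3 wild type overlapped and lay below D4 wild type, from which D3 cKO differed by -0.78 (SE 0.15, adjusted p = 0.00456). Stat5a, which carries the prolactin signal, differed by -1.05 (SE 0.26, adjusted p = 0.0148). Among the casein genes, Csn2 and Csn1s1 were undecided. Csn2, which encodes beta-casein, had signals of 13.20, 12.63 and 9.24 in D3 cKO and 13.85, 13.88 and 13.95 in D4 wild type, and also a wide range in D3 wild type (9.93, 13.11 and 12.14). Every D3 cKO array was below every D4 wild type array, with replicate 3 the lowest, and the difference was -2.20 with a 95% interval of -4.26 to -0.15 (adjusted p = 0.122). Csn1s2b was called lower and was not above background in D3 cKO, so that D4 wild type was at least 1.48-fold higher, while Wap and Csn3 were undecided at -0.55 and 0.38 and the secreted genes Ltf and Mfge8 were at the level.

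Most genes of lipid synthesis were at the level or undecided, but the 2 lists below differed in how many were at the level. Of all genes, 51.5% were at the level and 35.5% undecided. A further 7.1% of all genes were lower and 5.9% higher. Of 23 genes of fatty acid and triglyceride synthesis, 3 were lower, none higher and 11 at the level. The lower genes were Thrsp, a regulator of lipogenesis in the mammary gland and liver (-2.13), Srebf1, its transcription factor gene (-1.12), and Acss2, which makes acetyl-CoA (-0.95). Thrsp had signals of 7.51, 8.20 and 6.60 in D3 cKO and 9.02, 9.80 and 9.87 in D4 wild type with no overlap (SE 0.47, adjusted p = 0.00932). All 18 genes of cholesterol synthesis had positive differences with a median of 0.45, 3 of them higher. Only 2 of the 18 were at the level, and 13 were undecided. In 11 of the 18, every D3 cKO array lay above every D4 wild type array. Cyp51, which demethylates lanosterol, had signals of 12.57, 12.69 and 12.88 in D3 cKO, 11.69, 11.92 and 11.74 in D4 wild type and 12.90, 12.58 and 12.49 in D3 wild type. D3 cKO overlapped D3 wild type and lay above D4 wild type by 0.93 (SE 0.13, adjusted p = 0.000735). Hsd17b7 and Mvk were the others that were higher, and without D3 cKO replicate 1 the count was 7.

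Targets of the glucocorticoid receptor, which acts together with prolactin signalling in lactation, were lower in most cases. Of 21 tested, 11 were lower, 1 higher, 5 at the level and 4 undecided, with a median of -0.69, and the count of lower genes stayed between 9 and 11 when any array was left out. All genes together had 7.1% lower, 5.9% higher and 51.5% at the level. Tsc22d3, an anti-inflammatory leucine zipper protein, had signals of 10.21, 10.45 and 10.54 in D3 cKO, 12.27, 12.14 and 11.97 in D4 wild type and 10.30, 11.19 and 10.85 in D3 wild type. D4 wild type stood above both other groups, and D3 cKO differed from it by -1.73 (SE 0.21, adjusted p = 0.000349). Fkbp5, a co-chaperone of the receptor, had signals of 10.85, 10.99 and 10.71 against 12.17, 11.87 and 11.75, a difference of -1.08 (SE 0.15, adjusted p = 0.000661), and the circadian gene Per1 differed by -1.14. The largest difference in this group was that of Sult1a1, a phenol sulfotransferase, at -2.60 (SE 0.34, adjusted p = 0.000495). Its signals were 9.13, 9.39 and 7.98 in D3 cKO and 11.71, 11.07 and 11.52 in D4 wild type, with no overlap. Sgk1 and Cebpd were at the level, and Hsd11b1, which regenerates active glucocorticoid, was higher by 0.76.

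**Figure D4:**
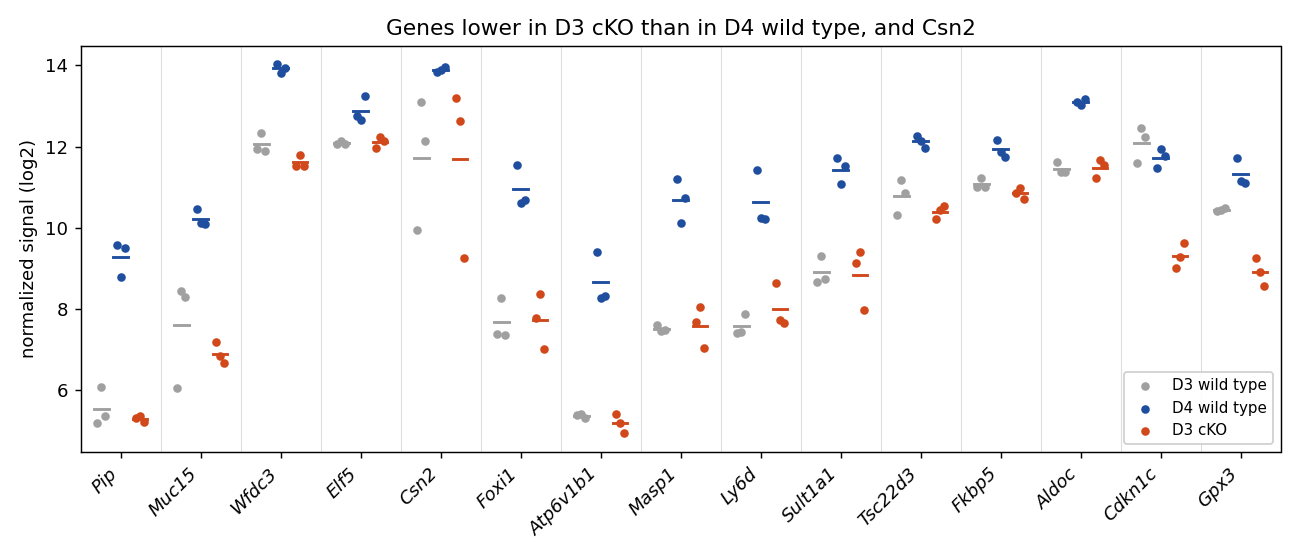
Normalized log2 signal of 15 genes (vertical axis) on each array, with 3 points and a bar at the mean for D3 wild type, D4 wild type and D3 cKO. In 14 of them D3 cKO was called lower than D4 wild type, Csn2 was undecided, and Wfdc3, Fkbp5, Cdkn1c and Gpx3 were lower in D3 cKO than on every array of either wild type group.

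Many genes of DNA replication stood above D4 wild type. Of 34 genes of DNA replication and the G1/S transition, 15 were higher, none lower and 5 at the level, with 33 positive differences and a median of 0.56. All genes together had 5.9% higher, 7.1% lower and 51.5% at the level. Pole, the catalytic subunit of a replicative polymerase, had signals of 8.55, 8.47 and 8.70 in D3 cKO, 6.92, 7.57 and 7.61 in D4 wild type and 8.61, 8.49 and 8.79 in D3 wild type. D3 cKO overlapped D3 wild type and lay above D4 wild type by 1.21 (SE 0.20, adjusted p = 0.00207). Mcm3, of the replicative helicase, had signals of 10.43, 10.48 and 10.49 in D3 cKO, 9.34, 9.86 and 9.63 in D4 wild type and 10.71, 10.72 and 10.81 in D3 wild type. It was intermediate, above D4 wild type by 0.86 (SE 0.13, adjusted p = 0.00119) and below every D3 wild type array. All 28 genes of mitosis had positive differences with a median of 0.49, and 6 were higher, among them the kinase genes Aurka (0.85) and Plk1 (0.72). That count was 2 without D4 wild type replicate 1, 3 without D3 cKO replicate 1 and 11 without D4 wild type replicate 2.

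Inhibitors of cyclin-dependent kinases differed in both directions. Cdkn1c, which encodes p57, had signals of 9.003, 9.28 and 9.62 in D3 cKO, 11.48, 11.95 and 11.76 in D4 wild type and 11.59, 12.45 and 12.24 in D3 wild type. D3 cKO was lower than all wild type arrays of both days, by -2.43 against D4 (SE 0.22, adjusted p = 6.47e-05). Cdkn1b, which encodes p27, was also lower (-1.06), and Cdkn1a, which encodes p21 and is a target of p53, was higher (1.03). Of 20 CDK inhibitors and p53 targets in all, 1 was higher, 3 lower and 8 at the level, and Mdm2 was among the last. Over all genes the shares were 5.9%, 7.1% and 51.5%.

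Markers of the epithelial layers differed gene by gene. Of 22 luminal markers, 8 were at the level, 1 was higher, 2 were lower and 11 undecided. The shares higher and lower were near the 5.9% and 7.1% over all genes. Aldh1a3, an enzyme of retinoic acid synthesis in luminal progenitors, had signals of 13.72, 13.41 and 13.52 in D3 cKO, 11.41, 11.74 and 11.82 in D4 wild type and 13.64, 13.32 and 13.38 in D3 wild type. D3 cKO overlapped D3 wild type and lay above D4 wild type by 1.90 (SE 0.18, adjusted p = 8.73e-05). Ly6d, a surface protein of luminal cells, differed by -2.62 and was lower (SE 0.34, adjusted p = 0.000463), with signals of 8.63, 7.72 and 7.64 against 11.43, 10.23 and 10.20. Another probe of Aldh1a3 was undecided at 1.09. The receptor tyrosine kinase gene Kit was lower with a difference of -1.04, a call lost without D3 cKO replicate 2 or 3.

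Basal and myoepithelial markers had 8 of 24 genes higher, 1 lower and 7 at the level, with a median of 0.56. The shares over all genes were 5.9%, 7.1% and 51.5%. Krt5, a basal keratin, had signals of 11.61, 10.62 and 10.21 in D3 cKO and 9.97, 8.46 and 8.18 in D4 wild type. The groups did not overlap, replicate 1 was the highest array within each, and the difference was 1.95 (SE 0.54, adjusted p = 0.0256). Actg2, a smooth muscle actin, had signals of 11.83, 11.49 and 11.07 against 10.19, 9.63 and 9.48 and differed by 1.70 (SE 0.33, adjusted p = 0.00454). Acta2 and Krt17 were higher by 0.72 and 0.79, whereas Krt14, Itga6 and Itgb4 were at the level and the basal transcription factor gene Trp63 was undecided at -0.16. The count of higher markers was 3 without D3 cKO replicate 1 or D4 wild type replicate 3 and 4 without D3 cKO replicate 2 or D4 wild type replicate 2, and Krt5 lost its call in each of these. In bulk cultures, fewer cells of a type and less RNA per cell cannot be told apart.

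Markers of other cell types moved with single arrays. Of 15 fibroblast markers 2 were higher and none lower, of 12 endothelial markers 1 was higher and none lower, and of 12 myeloid markers none was called either way, while no lymphocyte marker had a tested probe. Most were undecided, 13 fibroblast, 9 endothelial and 10 myeloid markers. Among all genes, 5.9% were higher and 7.1% lower. The median signal of the fibroblast list was 8.32 to 8.77 on D3 cKO arrays and 8.70, 7.61 and 7.80 on D4 wild type arrays. That of the endothelial list was 7.86 to 8.18 and 8.33, 7.60 and 7.17, and that of the myeloid list 7.72 to 8.80 and 8.48, 7.81 and 7.63. D4 wild type replicate 1 thus had the highest level of all 3 lists in its group, and D3 cKO replicate 1 was high on the fibroblast and myeloid lists. Without D4 wild type replicate 1, 10 basal, 5 fibroblast and 6 endothelial markers were higher. The part of these cell types in the basal and matrix results was not tested.

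**Figure D5:**
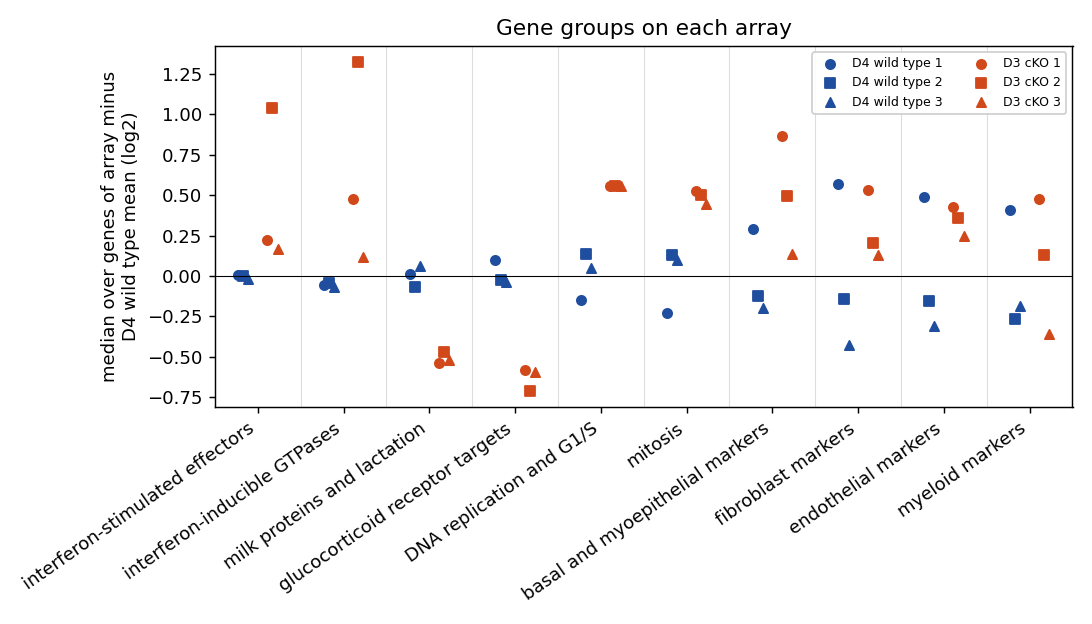
Median over the genes of a group of each array's log2 signal minus the mean of D4 wild type (vertical axis), for the 3 arrays of D4 wild type and of D3 cKO, with symbols for replicates 1 to 3. D3 cKO replicate 2 had the highest interferon groups (1.04 and 1.32), the replication genes were 0.56 on all 3 D3 cKO arrays, and the fibroblast and endothelial lists on D3 cKO arrays lay within the range of the D4 wild type arrays.

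Of 44 extracellular matrix genes, 10 were higher, 4 lower, 9 at the level and 21 undecided. The shares over all genes were 5.9% higher, 7.1% lower and 51.5% at the level. The share of matrix genes lower was thus near that over all genes. Ccn5, a matricellular protein also known as WISP2, had signals of 11.30, 11.58 and 10.30 in D3 cKO, 9.51, 8.21 and 8.54 in D4 wild type and 6.58, 6.60 and 6.23 in D3 wild type. Wild type had more at D4 than at D3, and D3 cKO exceeded both, by 2.31 over D4 (SE 0.36, adjusted p = 0.00156). The genes of the plasminogen system Plau, Plat and Plaur were higher by 1.11, 1.15 and 1.27. Ccn1, an immediate early gene, was lower with a difference of -1.29, and the laminin gene Lamb2 and the protease inhibitor gene Timp2 were lower as well. The fibrillar collagen genes Col1a1, Col1a2 and Col3a1 were undecided. The count of higher matrix genes was 5 without D4 wild type replicate 3 and 6 without D3 cKO replicate 1. Of 28 junction and polarity genes, 18 were at the level, against 51.5% over all genes, and Tjp3, which encodes a tight junction scaffold, was lower (-0.69).

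The largest excesses over D4 wild type went beyond these groups. Tceanc2 had signals of 9.36, 9.47 and 9.40 in D3 cKO against 5.78, 5.26 and 5.62 in D4 wild type and 5.50, 5.23 and 5.25 in D3 wild type, and as its probe was not detected on any D4 wild type array the fold was at least 8.99. Klra16, of the Ly49 receptor family, was at least 6.64-fold higher. Mgmt, which repairs alkylated guanine, had signals of 10.08, 10.14 and 9.77 against 7.09, 6.60 and 6.75 and differed by 3.18 (SE 0.21, adjusted p = 9.55e-06), and a second probe gave 1.04. Tnfrsf22, a decoy receptor for TRAIL in the mouse, was higher by 3.17 (SE 0.17, adjusted p = 1.56e-06). Its 4 probes disagreed, since 1 of the others was also higher (3.04), 1 was lower (-0.79) and 1 was undecided (0.53). In D3 wild type Mgmt had 5.86, 6.26 and 5.55, below all arrays of D4 wild type and D3 cKO. With Ifi47, Cxcl10 and Csf2, the 15 largest also held Tmem106b (3.10), Fuom (2.90), Spon2 (2.83), Bbs4 (2.66) and Clca2, 1190007I07Rik, 8430429K09Rik and Gml2, which were not above background in D4 wild type, at folds of at least 6.5, 4.9, 3.6 and 3.22.

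Of the 15 largest shortfalls, Pip, Muc15, Sult1a1 and Ly6d are described above. Foxi1, a forkhead factor of proton-secreting cells in the kidney, and Atp6v1b1, a subunit of the proton pump of such cells, were both far below D4 wild type. Foxi1 had signals of 7.77, 8.37 and 7.01 in D3 cKO, 11.54, 10.60 and 10.69 in D4 wild type and 7.38, 8.28 and 7.35 in D3 wild type. D3 cKO and D3 wild type overlapped, and D4 wild type was above both, with a difference of -3.23 (SE 0.41, adjusted p = 0.000421) and 2 further probes in the same direction. Atp6v1b1 had signals of 5.42, 5.18 and 4.93, 9.41, 8.26 and 8.32 and 5.39, 5.41 and 5.32 in that order of groups, and D4 wild type was at least 5.41-fold higher, although a dimmer probe was undecided at -0.42. Masp1, a protease of the lectin pathway of complement, differed by -3.09 (SE 0.33, adjusted p = 0.000165). Clec2e, a C-type lectin, had signals of 6.45, 6.09 and 5.78 in D3 cKO, 11.12, 9.40 and 9.87 in D4 wild type and 8.004, 7.68 and 6.85 in D3 wild type, and a second probe was undecided at -0.28. Pbp2 had 5.29, 5.81 and 6.26, 9.12, 9.12 and 8.70 and 9.74, 9.57 and 9.53 and was no lower in wild type at D3 than at D4. Cyp2f2, a cytochrome P450, differed by -3.37, Arhgef6 by -2.75, the acetyl-CoA synthetase gene Acss1 by -2.59 and Bbox1, which makes carnitine, by -2.59. Ppp1r3c, which targets a phosphatase to glycogen, and Gsg1l were not above background in D3 cKO, and D4 wild type was at least 3.96-fold and 3.32-fold higher.

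Genes that moved most between D3 and D4 in wild type were read in the younger cKO cultures as well. In wild type, 764 genes were higher at D4 than at D3 (7.52%) and 514 lower (5.06%), and since these values share the D4 wild type arrays with the comparison above they are given side by side. Pip, Foxi1, Atp6v1b1, Masp1, Ppp1r3c, Ly6d, Gsg1l, Arhgef6 and Col9a1 were 9 of the 10 largest fitted rises in wild type. The D3 wild type means of Pip, Atp6v1b1, Ppp1r3c, Gsg1l, Col9a1 and also Oas2 lay below the lowest signal of a detected probe. The rises of these genes therefore have no order. All 10 were picked for high values on the D4 wild type arrays, so that the lower means of these 9 in D3 cKO are a description. The other rise was Oas2, with a mean of 6.15 in D3 wild type, 9.27 in D4 wild type and 10.04 in D3 cKO. The 10 largest falls included Il24, a cytokine of the interleukin-10 family, with means of 10.88, 8.55 and 11.03 in the same order, and Serpinb2, Il1a, Il18rap, Ptpn22, Prl2c2, Prl2c4, Hmga2-ps1 and the cystine transporter gene Slc7a11. These were picked for low values on the D4 wild type arrays and were called higher in D3 cKO. The Prl2c genes are close copies whose probes may not tell them apart, and the calls of Prl2c2, Prl2c4 and Ptpn22 were lost when single arrays were left out. Lce1f, a gene of the cornified envelope, was the exception, with means of 9.79 in D3 wild type, 7.64 in D4 wild type and 5.42 in D3 cKO, where it was not above background.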

How the data were processed

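RNA of mouse MEC cultures was hybridized to Illumina Mouse WG-6 v2 arrays. The authors summarised bead signals in GenomeStudio, and the probe intensity values were used as deposited, without normalization. The deposited detection p-values compare each probe with the negative controls of its array. Intensities of all 12 arrays were background-corrected, quantile-normalized and log2-transformed with neqc (limma 3.58.1, R 4.3.3, offset 16). Probes that 3 or more of the 6 arrays detected (detection p below 0.05) were tested in a limma fit with a mean for each of 4 groups, with Benjamini-Hochberg adjustment over all 18666 probes. Of 45281 probes, 34885 had 1 gene symbol, 18 several and 10378 none. The brightest tested probe on average stood for a gene. Calls needed a fold of 1.5 or more with an adjusted p not above 0.05, or, for the level, were made by limma's one-sided tests against 1.5-fold. For a probe that no array of a group detected, the fold bounds the brighter mean against the dimmest detected probe there. The script was tested on simulated data.

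The gene lists, their members and the tests were chosen with earlier results of these data known. Named genes were the 15 largest called differences each way with no overlap of arrays, up to 4 called members each way and 3 at the level from each list, the genes the study names and the 10 largest changes each way between D3 and D4 in wild type. Others were chosen after their values were seen. Alternatives were the authors' processed intensity values (rank-invariant, background-subtracted, floored at 10), no background correction, median scaling, 3 other filters, the replicate number as a block, fits of the 6 arrays alone, other variance options, no fold minimum, any probe of a gene, an unpaired t-test, margins of 1.2-fold and 2-fold, and leaving out each array.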

Additional observations from a re-analysis of the deposited data

How the results depend on the processing

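The 600 higher, 722 lower and 5231 genes at the level moved little with most settings. Leaving out each array in turn gave 475 to 599 higher, 592 to 714 lower and 4052 to 4521 at the level. Without background correction the counts were 307, 473 and 8099, and with no filter 13175 genes were at the level. Without a fold minimum, 1105 were higher and 1168 lower. An unpaired t-test gave 148 and 252 after adjustment and 577 and 700 before it. A margin of 1.2-fold left 0 genes at the level and a margin of 2-fold 8428, both by limma. Whether the replicate numbers pair the samples is not stated and was not tested. Residuals of same-numbered D3 cKO and D4 wild type arrays correlated at 0.21, 0.04 and 0.20. With the replicate number as a block, 659 genes were higher, 751 lower and 5502 at the level. Among genes detected on all 6 arrays, a setting added after the data were seen, 5093 were at the level. The cause of these shifts was not tested. The 204 genes named by the rule were each read on the brightest probe in 17 or 18 settings, which left out the other margins, fold minimum and probes. No higher or lower call changed sign there. Of 3667 values, 210 lost such a call, 75 of them in the unpaired t-test, and 143 lost a call at the level. Probes not above background in a group limit folds to lower bounds.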

Other observations

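Further gene groups were read on the same 6 arrays, where 5.9% of all genes were higher, 7.1% lower and 51.5% at the level. Of 26 tested glutathione and antioxidant genes, 2 were higher in D3 cKO than in D4 wild type, 2 lower and 12 at the level. Slc7a11, which imports cystine for glutathione synthesis, had signals of 8.84, 8.58 and 10.17 in D3 cKO, 7.02, 7.39 and 6.89 in D4 wild type and 8.54, 9.61 and 9.37 in D3 wild type, so that D3 cKO lay with D3 wild type. Gpx2, an epithelial glutathione peroxidase, was higher by 1.80 (SE 0.38, adjusted p = 0.00749) and the secreted peroxidase Gpx3 lower with a difference of -2.41 (SE 0.21, adjusted p = 5.39e-05). Gpx3 had signals of 9.25, 8.91 and 8.57 in D3 cKO against 11.73, 11.15 and 11.10 in D4 wild type and 10.42, 10.43 and 10.48 in D3 wild type. Without D3 cKO replicate 2, 5 of these genes were higher. Of 21 genes of glycolysis and hypoxia, 4 were lower, none higher and 9 at the level. Aldoc, an aldolase, had signals of 11.23, 11.68 and 11.54 in D3 cKO, 13.09, 13.04 and 13.16 in D4 wild type and 11.62, 11.37 and 11.37 in D3 wild type, and the enzyme genes Gapdh, Pgk1, Ldha and Tpi1 were at the level.

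Of 14 genes of the cornified envelope and squamous epithelium, 4 were higher and 1 lower. The higher genes were the keratin Krt6b, at least 4.03-fold, and Klk7, at least 1.97-fold, neither of them above background in D4 wild type, and the related kallikrein proteases Klk6 and Klk8, by 1.74 and 1.13. Of 23 genes of the unfolded protein response, 3 were higher (Chac1, Hyou1 and Asns), 3 lower (Ddit3, Herpud1 and Dnajb9) and 10 at the level, and Asns lost its call without D3 cKO replicate 1 or 2 or D4 wild type replicate 2 or 3, Ddit3 without D3 cKO replicate 1, Herpud1 without D4 wild type replicate 1 and Dnajb9 without D3 cKO replicate 3. Of 24 cell death genes, 2 were higher, 4 lower and 9 at the level. Bcl2l11, which encodes the pro-apoptotic protein BIM, was lower with a difference of -1.16 and Bik with -0.83, while Bcl2 and Bcl2l14 lost their calls when D3 cKO replicate 1 or 3 or D4 wild type replicate 1 was left out. The executioner gene of necroptosis, Mlkl, was higher by 0.59, a call lost without D3 cKO replicate 2 or D4 wild type replicate 3.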
